A study of Macaca fascicularis with 7 samples.

Results

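The genes described here code for proteins that control the poly(A) tail of stored messenger RNA in the oocyte: the cytoplasmic polyadenylation element binding proteins CPEB1, CPEB2, CPEB3 and CPEB4, the cytoplasmic poly(A)-binding proteins PABPC1, PABPC1L and PABPC4, the deadenylase subunits PAN2 and PAN3, and the ribonuclease PARN. They were chosen by name, as the rows of the deposited count table that carry these 10 symbols, out of 28161 usable gene rows. All 10 passed the filter on low counts, which kept 16374 genes. The study measured mRNA in oocytes of the cynomolgus monkey, all labelled wild type. Germinal vesicle (GV) oocytes, which are immature and still hold an intact nucleus, gave 2 libraries. Metaphase II (MII) oocytes matured in the animal (IVO MII) gave 2 libraries and are labelled as controls, as are the GV oocytes. MII oocytes matured in culture (IVM MII) gave 3 libraries and are labelled as treated. The labels give no age for the animals, no culture medium and no number of oocytes per library. They also do not name the animal behind a library, and p-values therefore reflect the spread between libraries alone, which may be technical.

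A fully grown oocyte is transcriptionally silent and matures with the mRNA it has stored. Many stored mRNAs carry short tails while the oocyte is arrested. CPEB1 binds the cytoplasmic polyadenylation element (CPE) in their 3' ends, and when the oocyte resumes meiosis these tails are lengthened and translation starts. Poly(A)-binding proteins coat the tail, protect it and help to start translation, with PABPC1L as the form known from oocytes and early embryos. Tails are trimmed by deadenylases, of which PAN2-PAN3 is recruited through poly(A)-binding protein and PARN also binds the cap.

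Library totals ranged from 22901970 to 29245733 counts, and the 10 genes together held 0.0528% to 0.0907% of a library. Values are CPM (counts scaled to a common library size), scaled with TMM (trimmed mean of M values, which sets a typical gene equal across libraries), and ± is the SD between libraries, with n = 2, 2 and 3 for GV, IVO MII and IVM MII. The TMM factors, which multiply the library size, were 1.423 and 1.3815 in GV. They were 0.834 and 0.985 in IVO MII and 0.766, 0.889 and 0.9095 in IVM MII. Relative to CPM without TMM, the scaling therefore raised MII levels against GV for every gene. Differences are log2 fold changes with their standard error (SE) from 1 edgeR quasi-likelihood fit of all 7 libraries, and a gene was called at an adjusted p under 0.05 over all 16374 genes. Counts came from cDNA primed on poly(A), so a change in the number of transcripts and a change in tail length cannot be told apart. The folder names in the labels place the GV libraries apart from all MII libraries, so for GV against MII the folder and the stage cannot be told apart. All 11 oocyte markers were tested in the fit, with a summed level of 8743 to 18040 CPM in a library. Of the 16 cumulus and granulosa markers 15 were in the table and 7 were tested. Their summed level was 100.3 to 284 CPM in GV, 229 to 246.5 for IVO MII and 363 to 491 for IVM MII. SERPINE2 alone held a large part of it, at 80.2 to 265 CPM in GV, 118 to 181 in IVO MII and 144 to 392.5 in IVM MII. AMH and PTX3 had 0 counts in every library, and LHCGR, STAR, INHA, INHBA, FOXL2 and NR5A2 had at most 25 counts in any. FSHR (21.9 to 53.5 CPM in IVM MII, 3.32 to 6.01 in IVO MII) and TNFAIP6 (55.6 to 149 against 18.2 to 46.1) lay higher in IVM MII, and HAS2 lay lower (9.72 to 19.5 against 38.6 to 39.4). VCAN (0.912 to 3.21 against 2.78 to 6.57) and GJA1 (0.0376 to 1.395 against 1.12 to 1.35) had lower means in IVM MII, with libraries that overlapped. LOC102117886, the row of a further marker, had 0 counts in every IVM MII library, and 193 and 32 in IVO MII. Of the 7 tested cumulus and granulosa markers, edgeR called 0 between IVM and IVO MII, with a median log2 fold change of -1.04. Of all 16374 tested genes 3460 had an unadjusted p under 0.05 there, and 4 of these markers did. Against GV, 2 of the 7 markers were called higher and 0 lower in IVO MII, with a median log2 fold change of 2.68. In IVM MII 2 were called higher and 1 lower, with a median of 2.22. Over all tested genes these medians were -0.16 and -0.1. The part of cumulus and granulosa RNA in the differences between groups below was not tested. Values are shares of a library, so fewer cells of a type and less RNA per cell cannot be told apart.

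Most of the 10 genes were higher in MII than in GV oocytes, and they fell into 3 patterns. CPEB2, CPEB3, CPEB4, PABPC1, PABPC4 and PAN3 rose in both kinds of MII oocyte. PABPC1L fell in IVM MII alone by the test, and the difference between IVM and IVO MII was itself called. CPEB1, PAN2 and PARN were called in no comparison. Against GV, 6 of 10 rose and 0 fell in IVO MII, where 28.1% of all tested genes were called in either direction, 14.6% rose and 13.5% fell. In IVM MII 6 rose and 1 fell against GV, where 36.3% of all tested genes were called, 18.5% rose and 17.8% fell. The median log2 fold change of the 10 genes was 2.07 in IVO MII and 2.0 in IVM MII against GV, beside -0.16 and -0.10 over all tested genes. Both comparisons use the same GV libraries. The libraries of the groups did not overlap for 9 of 10 in IVO MII against GV, beside 72.8% of all tested genes, and for 7 of 10 in IVM MII, beside 69.1%. Between IVM and IVO MII 0 of 10 rose and 1 fell, beside 0.892% and 0.58% of all tested genes and 1.47% in either direction. For 4 of 10 (CPEB2, CPEB4, PABPC1 and PABPC1L) the IVM and IVO MII libraries did not overlap, beside 33.8% of all tested genes. Without GV replicate 1, which leaves GV without a replicate, fewer of the 10 genes were called against GV in both comparisons. Fewer of all tested genes were called there as well.

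**Figure D1:**
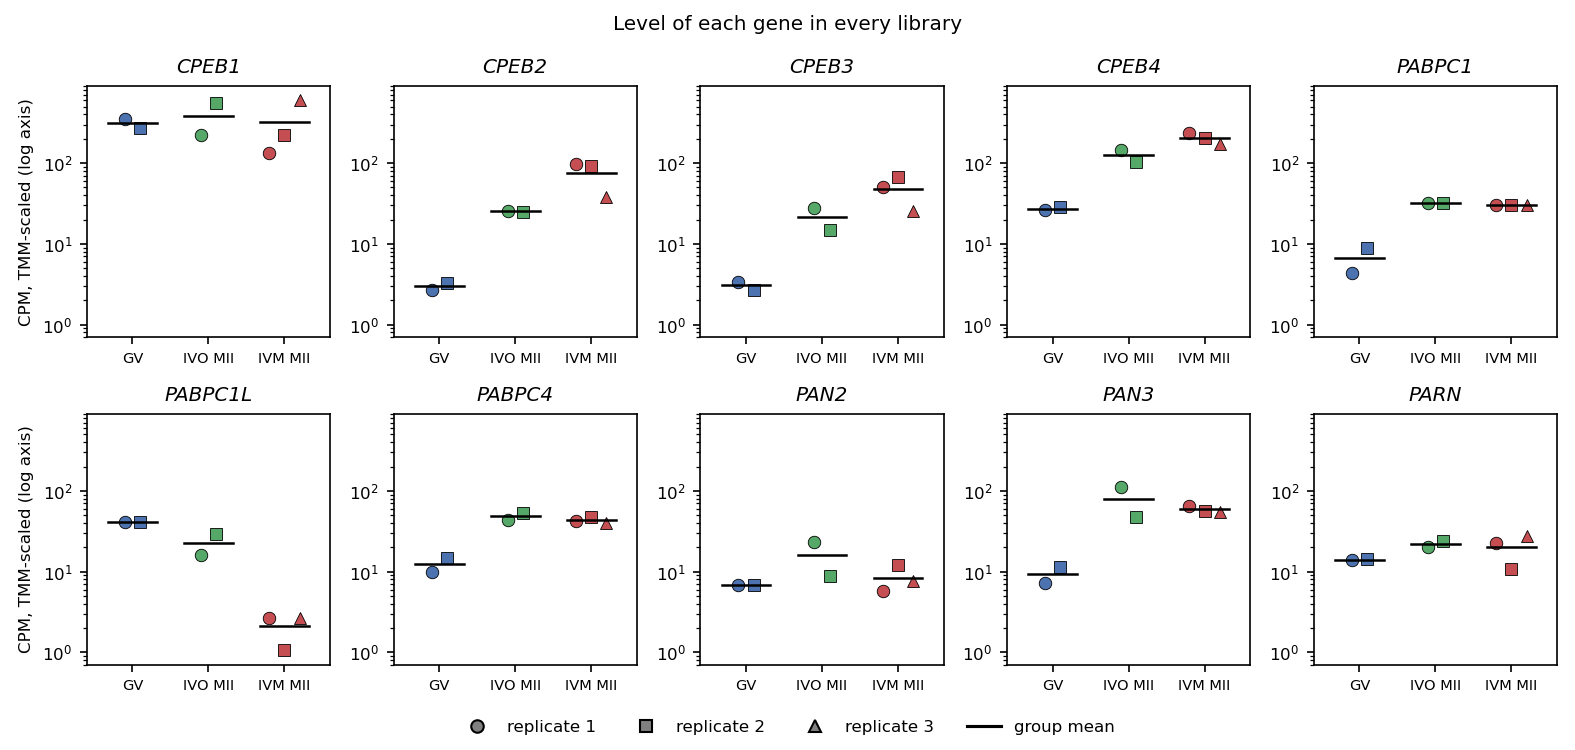
Level of each gene in every library, in TMM-scaled CPM on a log axis; points are libraries, their shape gives the replicate number and the bar is the group mean. CPEB2 runs from 2.69 to 98.1 CPM with no overlap between the 3 groups, PABPC1L falls from 40.9 CPM in GV to at most 2.67 in IVM MII, and CPEB1 spreads as widely within IVM MII as between groups.

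CPEB1, the founding member of the family and the main CPE-binding protein of the maturing oocyte, had the highest level per length of the 10 genes in every group. The gene lies on chromosome 7, bases 63372030 to 63471678, of the genome used in the deposited table, whose build is not named there. Its level was 352 and 269 CPM in the GV libraries, 222.5 and 548 in IVO MII, and 134, 225 and 599.9 in IVM MII. The highest IVM MII library stood above the highest IVO MII library and the lowest stood below both GV libraries, so the groups overlap throughout. The highest IVM MII library was 4.49 times the lowest, while the median of this ratio over 5854 genes with a mean of at least 20 CPM was 1.73 and its 90th percentile 3.49. In IVO MII the ratio was 2.46. Over all tested genes, IVM MII replicate 3 had rank correlations of 0.926 and 0.931 with replicates 1 and 2, in log2(CPM + 1). Replicates 1 and 2 of IVM MII stood at 0.951, the IVO MII libraries at 0.918 and the GV libraries at 0.979. The log2 fold changes were 0.31 (SE 0.68) for IVO MII and 0.04 (SE 0.62) for IVM MII against GV, and -0.27 (SE 0.62) between IVM and IVO MII. None passed, at adjusted edgeR p-values of 0.762, 0.965 and 0.843, and SEs of this size do not show that the groups were alike. The sign against GV turned in IVO MII without replicate 2 (-0.49) and in IVM MII without replicate 3 (-0.82) and with DESeq2 size factors (-0.12).

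The other CPEB genes, whose proteins bind U-rich elements and form a closely related subgroup, rose strongly from GV to MII. CPEB2 (chromosome 5, bases 14101270 to 14167511) stood at 2.69 and 3.29 CPM in GV, 25.7 and 24.8 in IVO MII, and 98.1, 92.0 and 38.02 in IVM MII. All libraries of the 3 groups were separate, with IVM MII highest. It rose by 3.08 on the log2 scale in IVO MII (SE 0.53, edgeR adjusted p = 0.00461) and by 4.67 in IVM MII (SE 0.55, edgeR adjusted p = 0.0014). The difference between IVM and IVO MII was 1.59 (SE 0.47) and was not called (edgeR adjusted p = 0.11). It passed without IVM MII replicate 3, the lowest of that group, at 1.90 and an edgeR adjusted p of 0.0215, and with DESeq2 at 0.0213, and its adjusted p ranged from 0.0213 to 0.284 over the alternatives.

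CPEB3 (chromosome 9, bases 90542616 to 90747456) had 3.42 and 2.69 CPM in GV, 27.9 and 14.7 in IVO MII, and 51.2, 67.0 and 25.7 in IVM MII. Every MII library was above both GV libraries, and the lowest IVM MII library, replicate 3, fell within the range of IVO MII. The rise was 2.80 in IVO MII (SE 0.58, edgeR adjusted p = 0.00874) and it was 3.97 in IVM MII (SE 0.59, edgeR adjusted p = 0.00213). The call in IVO MII was lost without GV replicate 1 (edgeR adjusted p = 0.0587) and without GV replicate 2 (0.0755), within a range of 7.56e-05 to 0.0755 over the alternatives. Between IVM and IVO MII CPEB3 differed by 1.17 (SE 0.51), which was not called.

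CPEB4, which is known to take over from CPEB1 in late meiosis in frog oocytes, lies on chromosome 6, bases 173546740 to 173619000. It had 26.1 and 28.6 CPM in GV, 146 and 103 in IVO MII, and 237, 206 and 173 in IVM MII. Each IVM MII library was above each IVO MII library, and these were all above GV. It rose by 2.18 in IVO MII (SE 0.35, edgeR adjusted p = 0.0037) and by 2.91 in IVM MII (SE 0.35, edgeR adjusted p = 0.0014). The difference of 0.72 between IVM and IVO MII (SE 0.31) was not called. Both rises of CPEB4 and both of CPEB2 kept their call in all 17 alternatives, among them leaving out each library in turn.

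**Figure D2:**
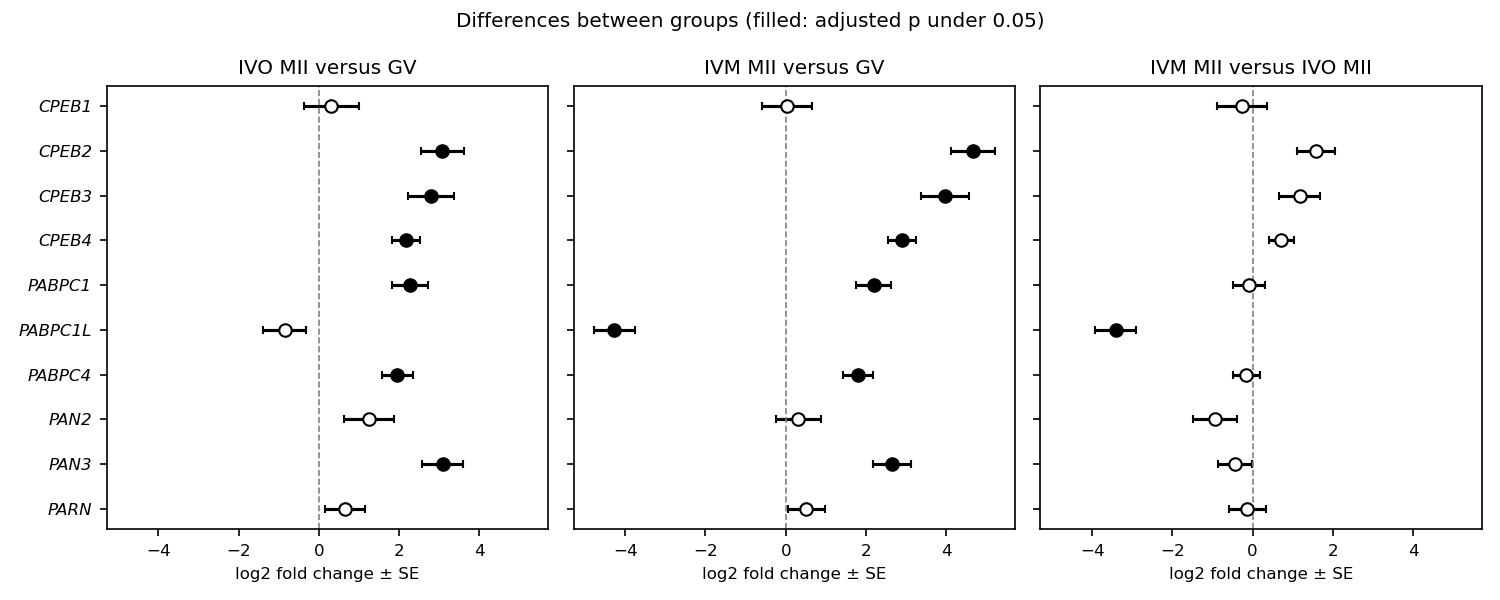
Log2 fold change of each gene in the 3 comparisons, with its SE; filled points had an edgeR adjusted p under 0.05 over all tested genes. Against GV the filled points on the right are CPEB2, CPEB3, CPEB4, PABPC1, PABPC4 and PAN3 in both panels, and PABPC1L is the filled point on the left for IVM MII against GV (-4.27) and against IVO MII (-3.41).

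The makeup of the CPEB transcripts differed between GV and MII libraries. Shares were taken of counts divided by the gene's exon length, so that they compare levels between genes within a library and do not depend on scaling between libraries. CPEB1 took 95.8% and 94.2% of the length-scaled CPEB counts in the GV libraries. It took 70.1% and 88.8% in IVO MII, and 41.5%, 56.2% and 84.0% in IVM MII. Both GV libraries were above all MII libraries. CPEB4 made up most of the rest, with 3.44% and 4.83% in GV, 22.2% and 8.04% in IVO MII, and 35.6%, 24.8% and 11.7% in IVM MII. CPEB2 went from 0.531% ± 0.167 in GV to 3.41% ± 1.62 in IVO MII and 11.02% ± 7.26 in IVM MII. CPEB3 stayed the smallest on average, at 0.342% ± 0.00279, 2.04% ± 1.66 and 4.41% ± 2.68. IVO MII replicate 2 and IVM MII replicate 3, the libraries with the highest CPEB1, were also the MII libraries with the highest CPEB1 shares. With groups of 2 and 3 libraries an exact two-sided permutation test of a share cannot go below 0.2, and with 2 against 2 not below 0.333, so no difference in shares could pass a threshold of 0.05.

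**Figure D3:**
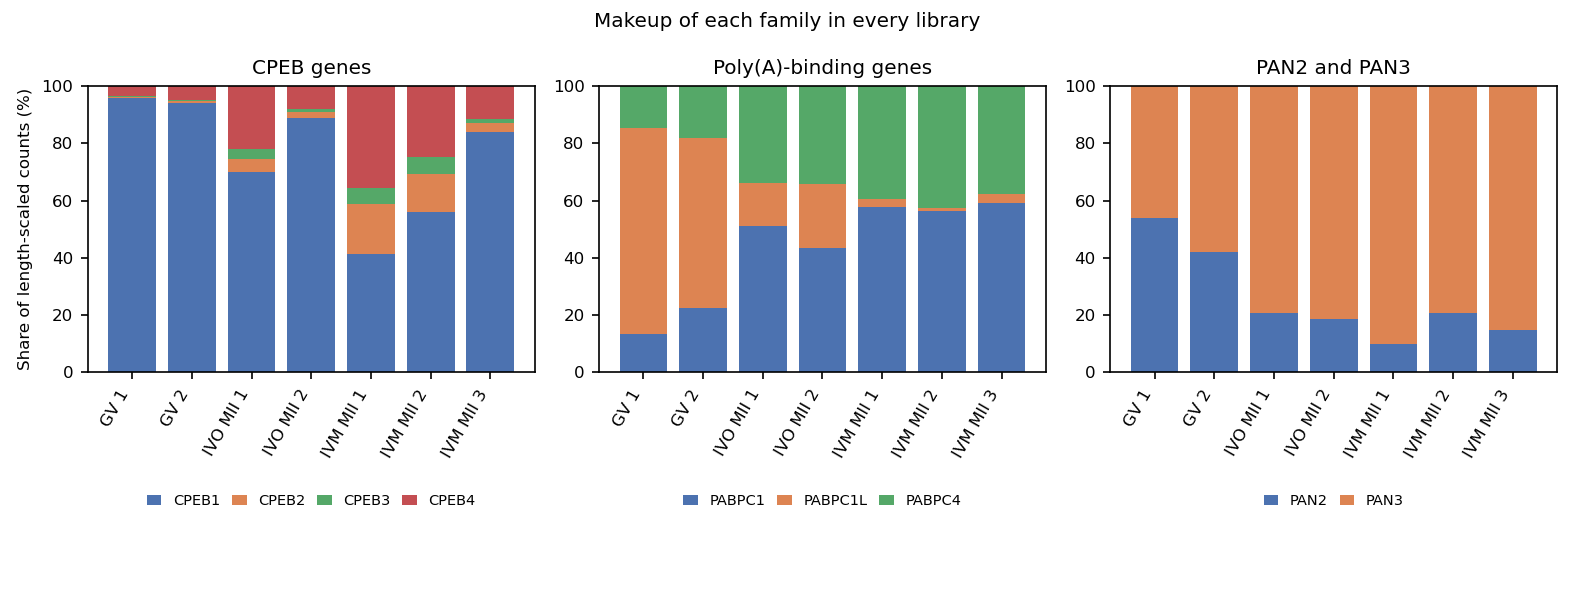
Share of each gene in the length-scaled counts of its family, in percent, with 1 bar per library. PABPC1L takes 59.4% to 71.8% of the poly(A)-binding counts in GV and at most 3.03% in IVM MII, and CPEB1 takes 94.2% to 95.8% of the CPEB counts in GV and 41.5% to 88.8% in MII.

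PABPC1L, the oocyte and embryo form of the poly(A)-binding protein, was the member called between the 2 kinds of MII oocyte. The gene lies on chromosome 10, bases 76638997 to 76669729. The GV libraries held 1352 and 1292 counts, the IVO MII libraries 317 and 753, and the IVM MII libraries 49, 25 and 71. The lowest of these, 25 counts, has a 95% exact Poisson interval of 16.2 to 36.9, which covers counting error only. In CPM the level was 40.9 in both GV libraries, 16.2 and 29.03 in IVO MII, and 2.63, 1.06 and 2.67 in IVM MII, so that no library of a group overlapped with another group. PABPC1L fell by 4.27 on the log2 scale from GV to IVM MII (SE 0.52, edgeR adjusted p = 0.0015), and this call held in all 17 alternatives. From GV to IVO MII it changed by -0.85 (SE 0.54), which was not called (edgeR adjusted p = 0.263). Over the 17 alternatives this change ran from -1.49 to -0.51. Set against IVO MII, the IVM MII level differed by -3.41 on the log2 scale (SE 0.51, edgeR adjusted p = 0.0271).

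The fold change of PABPC1L between IVM and IVO MII stayed between -3.78 and -3.01 in all 17 alternatives, and its adjusted p ran from 1.73e-08 with DESeq2 to 0.101. The call was lost in a fit of only the MII libraries, which share 1 folder (edgeR adjusted p = 0.0658). It was also lost without GV replicate 2 (0.0532), IVO MII replicate 2 (0.0924), IVM MII replicate 1 (0.0914) or IVM MII replicate 2 (0.101). The share of PABPC1L in the 3 poly(A)-binding genes, which needs no scaling between libraries, was 71.8% and 59.4% in GV, 14.8% and 22.4% in IVO MII, and 2.87%, 1.12% and 3.03% in IVM MII.

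PABPC1, the general cytoplasmic poly(A)-binding protein of most cells, was at 4.42 and 8.85 CPM in GV (chromosome 8, bases 101842817 to 101860780). It had 32.2 and 32.4 CPM in IVO MII and 30.3, 30.6 and 29.9 in IVM MII. The 5 MII libraries lay within a narrow band well above both GV libraries, and the GV libraries differed from each other by a ratio of 2.005. The rise was 2.28 in IVO MII (SE 0.45, edgeR adjusted p = 0.00757) and it was 2.19 in IVM MII (SE 0.43, edgeR adjusted p = 0.00554). Without GV replicate 1, the lower of the pair, neither rise passed, at adjusted p-values of 0.0938 and 0.0856, beside a lowest value over the alternatives of 2.20e-05 and 9.44e-06. The difference between IVM and IVO MII was -0.09 (SE 0.39). PABPC1 is known for many intronless copies in primate genomes, and reads placed without splitting over introns can move between them, so its level is uncertain. PABPC3, an intronless relative with its own row, held 48 and 84 counts in GV, 98 and 272 in IVO MII, and 21, 25 and 133 in IVM MII, and was called in no comparison.

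PABPC4, a relative of PABPC1 first described in activated T cells, rose in the same 2 comparisons (chromosome 1, bases 188203624 to 188257172). It had 9.95 and 14.9 CPM in GV, 44.1 and 52.7 in IVO MII, and 42.8, 47.6 and 39.6 in IVM MII. All MII libraries were above GV, and the IVM and IVO MII libraries overlapped. PABPC4 rose by 1.96 in IVO MII (SE 0.39, edgeR adjusted p = 0.00763) and by 1.80 in IVM MII (SE 0.37, edgeR adjusted p = 0.00651), and both calls were lost without GV replicate 1, at 0.107 and 0.11, which were the highest values over the alternatives. Between IVM and IVO MII the difference was -0.16 (SE 0.34). The row overlaps 1 other row, which held 2 counts over all libraries. Of all pairs among the 10 genes, PABPC1 and PABPC4 had the most similar course over the 7 libraries, with a root mean square difference of 0.195 between their centred log2(CPM + 1) values. The next pair was CPEB2 and CPEB3, at 0.4.

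Summed per length, the 3 poly(A)-binding genes came to 13.7 ± 1.83 CPM per kb in GV, 26.0 ± 3.15 for IVO MII and 19.9 ± 0.692 for IVM MII. Per length, PABPC1L led the family in GV and PABPC1 in every MII library. Without division by length PABPC4 led in every MII library, with 47.0% of the counts in IVO MII and 57.2% in IVM MII against 31.6% and 40.0% for PABPC1. PABPC1 took 13.5% and 22.4% of the length-scaled counts in GV, 51.3% and 43.5% in IVO MII, and 57.8%, 56.5% and 59.2% in IVM MII. PABPC4 took 16.5% ± 2.48, 34.1% ± 0.14 and 39.9% ± 2.35 in the same order. All IVM MII libraries were above all IVO MII libraries for both, and below them for PABPC1L.

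Of the PAN2-PAN3 complex, PAN3, the adaptor that binds poly(A)-binding protein and the tail, rose with maturation, while PAN2, the nuclease subunit, was called in no comparison. PAN3 (chromosome 17, bases 7867936 to 8030051) had 7.20 and 11.5 CPM in GV, 111 and 47.9 in IVO MII, and 65.6, 56.1 and 54.7 in IVM MII. IVO MII replicate 1 stood apart at 2.32 times replicate 2, and the IVM MII libraries fell between them. The rise was 3.09 in IVO MII (SE 0.51, edgeR adjusted p = 0.00388) and it was 2.65 in IVM MII (SE 0.48, edgeR adjusted p = 0.0039). The second was lost without GV replicate 1 (0.0515, the highest of its alternatives), while the first held in all 17, at 2.34 without IVO MII replicate 1. The difference of -0.44 between IVM and IVO MII (SE 0.42) was not called and turned to 0.29 without IVO MII replicate 1.

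PAN2 (chromosome 11, bases 55259382 to 55278785) had 6.81 and 6.77 CPM in GV, 23.5 and 8.95 in IVO MII, and 5.74, 12.0 and 7.60 in IVM MII. Its IVO MII libraries were above GV but differed from each other by a ratio of 2.63, and its IVM MII libraries fell on both sides of GV. The log2 fold changes were 1.26 in IVO MII (SE 0.62) and 0.31 in IVM MII (SE 0.56) against GV, and -0.94 between the MII groups (SE 0.55), at adjusted edgeR p-values of 0.156, 0.689 and 0.353. Without IVO MII replicate 1 the first was 0.39 and the last -0.08, and without IVO MII replicate 2 they were 1.79 and -1.56. PAN3 took 46.1% and 57.9% of the length-scaled counts of the pair in GV, 79.2% and 81.2% in IVO MII, and 90.2%, 79.1% and 85.3% in IVM MII. Every MII library was above both GV libraries in this share.

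PARN, a poly(A)-specific ribonuclease that binds the cap, was called in no comparison (chromosome 20, bases 14839229 to 15047151). It had 14.0 and 14.2 CPM in GV, 20.1 and 24.1 in IVO MII, and 22.4, 10.8 and 27.3 in IVM MII. Before scaling the counts were 464 and 449 in GV and 395 and 625 in IVO MII, which overlap. IVM MII replicate 2 was the lowest of all libraries and replicate 3 the highest. The log2 fold changes against GV were 0.65 in IVO MII (SE 0.50) and 0.51 in IVM MII (SE 0.46), and -0.13 between the MII groups (SE 0.46), with none called.

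Ordered by level per length, CPEB1 came first in each group, at 82.2 ± 15.5, 102 ± 61.0 and 84.6 ± 65.4 CPM per kb in GV, IVO MII and IVM MII. In GV, PABPC1L came second at 8.89 ± 0.00524 and CPEB2 and CPEB3 last at 0.446 ± 0.063 and 0.295 ± 0.0499, and from the third place on, CPEB4, PARN, PABPC1, PABPC4, PAN3 and PAN2 followed each other with neighbours that overlapped. In IVO MII, CPEB4 came second at 15.9 ± 3.89, which overlapped with PAN3 at 12.7 ± 7.12, and CPEB3 was last at 2.06 ± 0.905, overlapping with PAN2. In IVM MII, CPEB4 was second at 26.2 ± 4.14 with no overlap with PABPC1 at 11.5 ± 0.134, which did overlap with CPEB2 at 11.3 ± 4.93. PABPC1L had moved to the last place there, at 0.461 ± 0.2 CPM per kb, below PAN2 at 1.66 ± 0.629 with no overlap.

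Genes with the most similar course were sought among 4939 other genes with a symbol and a mean of at least 20 CPM, by the root mean square difference of centred log2(CPM + 1) over the 7 libraries. For PABPC1L the nearest was SLC30A8, which encodes a zinc transporter, at 0.399, with 51.1 and 50.4 CPM in GV, 28.3 and 18.7 in IVO MII, and 3.92, 1.82 and 3.99 in IVM MII. It was followed by C11H12orf56 (0.448) and SOX15 (0.485). For CPEB4 the nearest genes were closer: SOS2, which encodes a RAS exchange factor, at 0.089, ECT2, which acts in cytokinesis, at 0.098, and MANEA at 0.119. ECT2 had 99.8 and 123 CPM in GV, 542 and 387 in IVO MII, and 1071, 843 and 674.5 in IVM MII. For CPEB2 they were ETNK1 (0.25), CCDC59 (0.327) and MAST4 (0.353), and for CPEB1, with its wide spread within groups, SAP130 (0.158), RHPN2 (0.181) and PGAP2 (0.186).

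Genes that work with these 10 were read from 5 lists of related functions, and their counts stand beside the background shares given above. The first list holds proteins that act with CPEB1 on stored mRNA, or keep it silent. Of its 24 tested genes, 6 rose and 2 fell in IVO MII against GV, and 6 rose and 4 fell in IVM MII, with median log2 fold changes of 0.34 and 0.17. The 2 that fell in IVO MII became 4 or 5 in 9 alternatives, among them DESeq2 (5) and limma voom (5). PAPD4, whose product (also called TENT2 or GLD2) lengthens tails in the cytoplasm, rose from 163 ± 24.5 CPM in GV to 536 ± 37.1 in IVO MII and 447 ± 75.4 in IVM MII. Both calls of PAPD4 were lost without GV replicate 1 (edgeR adjusted p = 0.0521 and 0.0598) and without GV replicate 2 (0.0799 and 0.0986). EIF4E, the cap-binding protein of translation, rose from 157 ± 25.3 CPM in GV to 636 ± 83.2 in IVM MII, or by 2.02 on the log2 scale (SE 0.34). It also rose in IVO MII (1.29, SE 0.35), a call lost when either GV library was left out. PATL2, an RNA-binding protein of the immature oocyte, fell from 226 ± 71.8 CPM in GV to 37.2 ± 18.8 in IVO MII and 28.0 ± 2.69 in IVM MII. Its log2 fold change in IVO MII was -2.61 (SE 0.46), and -3.25 without IVO MII replicate 2. ZAR1L, a relative of the mRNA-binding protein ZAR1, fell from 1029 ± 124 CPM in GV to 163 ± 28.0 in IVO MII. It also fell in IVM MII (-1.03, SE 0.33), a call lost when either GV library was left out.

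Among the enzymes that add tails or single nucleotides to RNA ends, 13 genes were tested. In IVO MII 4 rose and 0 fell against GV, and in IVM MII 6 rose and 1 fell, with medians of 0.48 and 1.10. The count of 0 that fell in IVO MII was 2 with DESeq2 and limma voom. PAPD7 and PAPD5, which encode the noncanonical poly(A) polymerases TENT4A and TENT4B, rose in both. PAPD7 went from 103 ± 5.46 CPM in GV to 1115 ± 263 in IVO MII and 669 ± 29.2 in IVM MII, with log2 fold changes of 3.44 (SE 0.34) and 2.70 (SE 0.31). PAPD5 went from 8.60 ± 3.9 CPM to 101 ± 48.4 and 49.6 ± 5.89, and its call in IVM MII was lost without GV replicate 1 (edgeR adjusted p = 0.0589). In IVO MII the rise of PAPD5 was 3.56 on the log2 scale (SE 0.52), and 2.95 without IVO MII replicate 1. FAM46B, which encodes TENT5B, fell from 23.7 ± 1.18 CPM in GV to 1.38 ± 0.534 in IVM MII, which is -4.10 on the log2 scale (SE 0.68).

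Of 17 tested genes for other poly(A)-binding proteins, their partners and relatives of the partners, 5 rose and 0 fell in IVO MII against GV. In IVM MII 6 rose and 1 fell, with medians of 0.60 and 0.24. The count of 0 that fell in IVO MII was 2 with DESeq2, limma voom, the newer edgeR fit or only the groups compared, and 3 with a replicate block. PAIP1, which binds poly(A)-binding protein and stimulates translation, rose from 1051 ± 257 CPM in GV to 3910 ± 1524 in IVM MII, and was lost without GV replicate 1 (edgeR adjusted p = 0.0901). LARP4B, which binds poly(A)-binding protein, rose from 36.7 ± 6.58 CPM in GV to 129 ± 3.71 in IVO MII and 126 ± 12.0 in IVM MII. Its calls were lost without GV replicate 1, at 0.083 and 0.0686. EIF4G2, a translation factor of the eIF4G family, rose from 396 ± 20.5 CPM to 1781 ± 434 and 2365 ± 708. EIF4G3, of the same family, rose from 4.57 ± 0.734 CPM in GV to 25.9 ± 6.74 in IVO MII and also rose in IVM MII (1.61, SE 0.45), and both calls were lost when either GV library was left out.

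Of 21 tested genes for other deadenylases, their relatives and associated proteins, 5 rose and 2 fell in IVO MII against GV. In IVM MII 5 rose and 4 fell, with medians of 0.27 and 0.65. CNOT6L, a nuclease of the CCR4-NOT complex, rose from 47.3 ± 9.01 CPM in GV to 335 ± 76.5 in IVO MII and 353 ± 15.2 in IVM MII. CNOT6, its close relative, rose from 7.25 ± 1.10 CPM in GV to 68.4 ± 23.4 in IVM MII, and by 1.63 on the log2 scale (SE 0.45) in IVO MII, where the call was lost when either GV library was left out. NOCT, which encodes nocturnin, an enzyme of the same protein family, fell from 73.5 ± 12.5 CPM to 13.3 ± 4.14 in IVO MII and 7.97 ± 1.66 in IVM MII, and the first call was lost without GV replicate 1 (edgeR adjusted p = 0.0503). CNOT7, another nuclease of CCR4-NOT, stood at 103 ± 8.40 CPM in GV, 561 ± 74.7 for IVO MII and 202 ± 13.9 for IVM MII. It rose in IVO MII by 2.44 (SE 0.31) and in IVM MII by 0.97 (SE 0.28), the second call being lost when either GV library was left out. IVM MII differed from IVO MII by -1.47 on the log2 scale (SE 0.27, edgeR adjusted p = 0.0401). This call was lost in 7 of 17 alternatives, among them a fit of only the MII libraries (0.0917) and the fits without any 1 library other than IVM MII replicate 3 (0.0666 to 0.14).

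The last list holds mRNAs known from other species as translated through CPEs in oocytes. Of its 14 tested genes, 7 rose and 3 fell in IVO MII against GV, and 8 rose and 2 fell in IVM MII, with medians of 0.91 and 1.10. FBXO43, which encodes the inhibitor of the anaphase-promoting complex also called EMI2, rose from 6.94 ± 1.86 CPM in GV to 91.7 ± 29.8 in IVO MII and 58.2 ± 5.30 in IVM MII. MOS, the kinase that keeps MII oocytes arrested, fell from 544 ± 183 CPM to 32.8 ± 12.7 and 105 ± 44.0. CDC25C, a phosphatase that activates the kinase of M phase, fell from 126 ± 10.8 CPM in GV to 31.6 ± 6.21 in IVM MII. In IVO MII it fell by 1.74 on the log2 scale (SE 0.40), a call lost when either GV library was left out. CNOT7 is also on this list, and 5 genes in all are on more than 1 list.

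Between IVM and IVO MII, 0 genes of the first 3 lists were called, and CNOT7 was the 1 called gene of the other 2, beside 1.47% of all tested genes. By edgeR, 5, 5 and 3 genes of the first 3 lists had an unadjusted p under 0.05, of 24, 13 and 17 tested. Over all 16374 tested genes the number was 3460. DESeq2 called 3, 1 and 1 genes of these lists, beside 2010 of all tested genes. With limma voom 1 gene of the first list was called, beside 497 of all tested genes. Without IVM MII replicate 3, edgeR called 1, 1 and 2 genes of the first 3 lists, and of the fourth list 1 was higher and 4 lower. Of all 16189 genes tested without that library 1277 were called, beside 241 in the fit of all 7 libraries. In each list, and over all tested genes, fewer genes were called higher against GV when a GV library was left out. Such a fit leaves GV without a replicate. Without GV replicate 1 the numbers that rose in IVO MII were 0, 2, 1, 2 and 2 for the 5 lists in the order given, and without GV replicate 2 they were 0, 2, 2, 3 and 3. For IVM MII they were 1, 1, 1, 3 and 2 without GV replicate 1, and 1, 2, 3, 3 and 2 without GV replicate 2. Among the MII libraries, leaving out IVM MII replicate 3 took the genes of the first list that fell in IVO MII from 2 to 7. Over all tested genes that number went from 2204 to 2714. Without IVO MII replicate 2, 3 in place of 5 genes of the third list rose in IVO MII. Without IVM MII replicate 1, 3 genes of the fourth list and 3 of the last rose in IVM MII, in place of 5 and 8. Over all tested genes 2185 rose, in place of 3037.

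**Figure D4:**
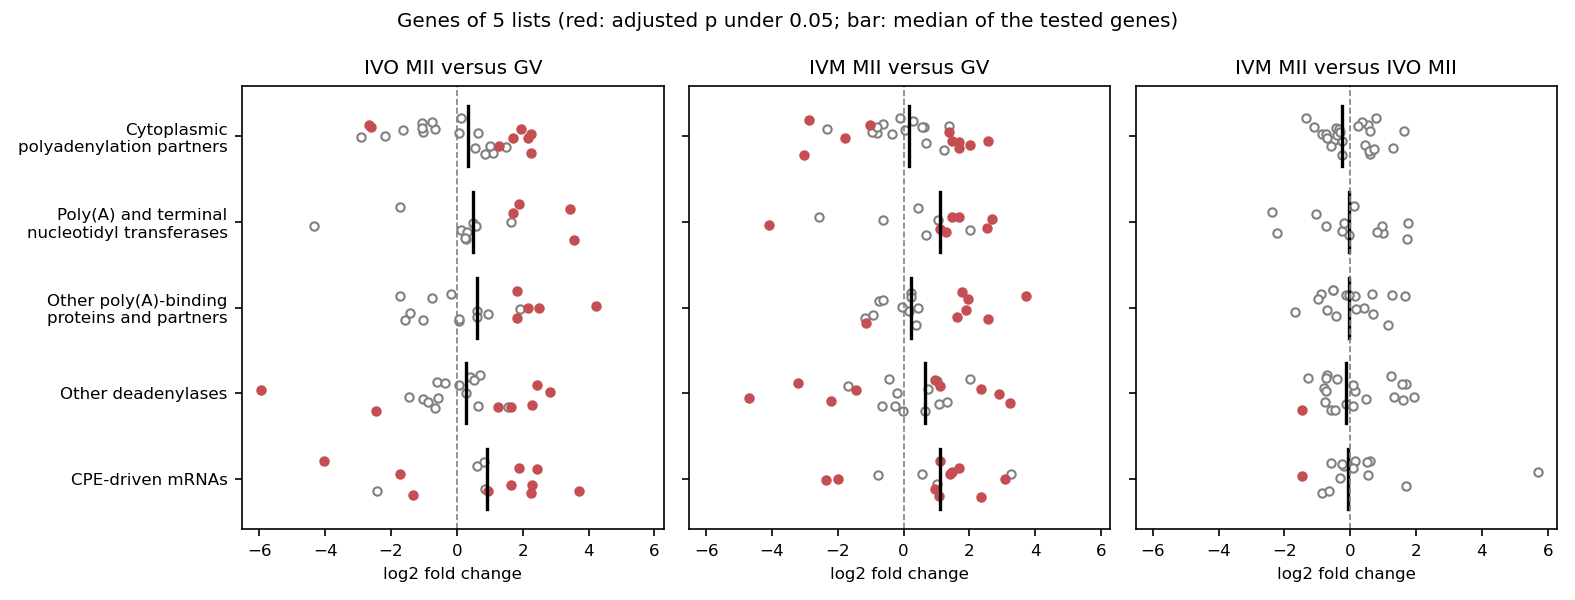
Log2 fold change of every tested gene of the 5 lists in the 3 comparisons; red points had an edgeR adjusted p under 0.05 and the bar is the median of the list. Against GV each list holds called genes to the right of 0, such as PAPD7 at 3.44 in IVO MII, and between IVM and IVO MII the red point is CNOT7 at -1.47, which is on 2 lists.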

How the data were processed

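The authors deposited a table of raw read counts per gene with each gene's exon positions and length. featureCounts 2.0.1, SAMtools 1.15.1, Bowtie2 2.4.5, Trim Galore 0.6.7 and DESeq2 are listed, per the submitters' processing notes. Neither their order nor the strand setting, the rule for multiply mapped reads or the build is given in the sources used here. Per the labels' protocols, cDNA was primed on poly(A), extended by template switching, amplified by PCR and tagmented. The deposited length is in bases and served as the divisor for CPM per kb.

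From the counts, 10 broken lines were left out, and 26 names that had become dates kept no symbol. Of 11294 rows named by a locus, 5013 matched RefSeq's gene table for a telomere-to-telomere assembly of the species, used for names only, and 721 gained a symbol. edgeR 4.0.16 in R 4.3.3 (limma 3.58.1) kept 16374 genes with filterByExpr, scaled with TMM and tested all 3 contrasts in 1 quasi-likelihood fit of 7 libraries, two-sided, with Benjamini-Hochberg adjustment over all tested genes. The SE is the log2 fold change divided by the root of F. The fit was also run on counts simulated with known fold changes and a spread that depended on level only. That run therefore does not show how reliable the calls in these libraries are. Alternatives were other scalings and filters, DESeq2 1.42.0, limma voom, a newer edgeR fit, a fit of the compared groups alone, a replicate block by title number or by file label number (the latter chosen after seeing the data) and leaving out each library.

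All 10 genes are named throughout. Of each list, up to 3 called genes a comparison are named, those with the smallest adjusted p and at least 20 CPM in the higher group. The genes and lists were chosen with earlier results of these data known. Groups come from the labelled cell type, and no library was left out.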

Additional observations from a re-analysis of the deposited data

Results flagged for a closer look

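PABPC1L differed in its change from GV between the 2 kinds of MII oocyte. The log2 fold change against GV was -4.27 in IVM MII and -0.85 in IVO MII, with the same GV libraries in both. The difference itself was tested as IVM against IVO MII and was -3.41 (SE 0.51, edgeR adjusted p = 0.0271), with all 3 IVM MII libraries below both IVO MII libraries.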

How the results depend on the processing

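Every called change of CPEB2, CPEB4 and PABPC1L against GV, of CPEB3 in IVM MII and of PAN3 in IVO MII kept its direction and its call in all 17 alternatives. Leaving out 1 library at a time gave 1484 to 5517 called genes and 3 to 6 called members in IVO MII against GV, and 2110 to 6716 genes and 4 to 7 members in IVM MII against GV. Between IVM and IVO MII the 241 called genes became 731 with no filter, 2010 with DESeq2, 497 with limma voom, 772 with the newer edgeR fit and 54 with only the groups compared, and 0 to 1277 without 1 library. The count of 0 was reached without IVM MII replicate 1 or 2. The called members there were 2 with DESeq2 (PABPC1L and CPEB2), 0 with only the groups compared, and 0 to 2 without 1 library. The cause was not tested.

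Changes that were not called turned sign in places. CPEB1 in IVM MII against GV was -0.12 with DESeq2 size factors and with DESeq2, -0.06 with upper quartile scaling, -0.05 with at least 1 CPM in 2 libraries, -0.21 with limma voom and -0.82 to 0.39 without 1 library. Without 1 library CPEB1 ran from -0.49 to 0.81 in IVO MII against GV and from -1.11 to 0.44 between IVM and IVO MII, PAN2 from -0.02 to 0.51 in IVM MII against GV, and between IVM and IVO MII PAN3 from -1.01 to 0.29 and PARN from -0.44 to 0.17.

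Replicate numbers in the titles did not meet the rule for pairs: same-numbered libraries had correlations of their deviations from -0.234 to 0.353, and not every library correlated best with its own number. The file labels give IVO MII replicate 2 the number 3, and by those numbers the correlations ran from -0.234 to 0.406, with 0.353 and 0.406 for the pairs of IVO and IVM MII. Deviations were taken from the group mean, so in a group of 2 they mirror each other and the signs are tied. The values 0.353 and 0.406 are therefore not independent of each other. With a replicate block 4926, 5818 and 1238 genes were called in the 3 comparisons, 2 members between IVM and IVO MII (CPEB2 at an edgeR adjusted p of 0.0253), and CPEB1 in IVM MII against GV was -0.90. With a replicate block by file label number, chosen after seeing the data, 5079, 6973 and 832 genes and 6, 7 and 1 members were called, CPEB1 was -0.58 in IVO MII and -0.73 in IVM MII against GV, and PARN was 0.03 between IVM and IVO MII. Without division by length CPEB1 took 90.1%, 66.1% and 45.2% of CPEB counts in GV, IVO MII and IVM MII. Depth limits PABPC1L in IVM MII most, at 25 to 71 counts.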

Other observations

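Further genes of the lists were chosen after their values were seen, so they are no added support for the results above. Genes of the same lists that were called lower against GV, such as YBX2 and PNLDC1 in IVM MII, are not among them. EIF4E1B, the oocyte form of the cap-binding protein, was at 37.4 ± 11.3 CPM in GV, 169 ± 25.4 with IVO MII and 120 ± 51.3 with IVM MII (n = 2, 2 and 3), and rose against GV by 2.17 (SE 0.50) and 1.68 (SE 0.46) on the log2 scale, with both calls lost without GV replicate 1 (edgeR adjusted p = 0.115 and 0.183) and without GV replicate 2 (0.0537 and 0.0719). BTG4, the adaptor that recruits CCR4-NOT in oocytes, rose by 2.27 (SE 0.47) and 2.34 (SE 0.45), and the first was lost without GV replicate 1 (0.0658). DAZL, an RNA-binding protein that acts with CPEB1, rose by 2.25 (SE 0.47) and 1.68 (SE 0.44), and both calls were lost without GV replicate 1 (0.0688 and 0.116) and without GV replicate 2 (0.0668 and 0.109). EIF4ENIF1, a protein that holds eIF4E in a silent complex, was at 120 ± 8.74 CPM in GV, 132 ± 58.1 for IVO MII and 61.1 ± 4.88 for IVM MII, and was called in no comparison. PABPC4L, a relative of PABPC4, rose by 4.24 (SE 1.10) in IVO MII and 3.71 (SE 1.04) in IVM MII from low levels, and both calls were lost when either GV library was left out.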
